A study of Mus musculus with 6 samples.

Results

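The 9 genes described here are long noncoding RNA genes that are known as nuclear body RNAs (Malat1 and Neat1), as hosts of small nucleolar RNAs (snoRNAs) or relatives of such hosts (Gas5, Snhg1, Snhg8, Snhg12 and Epb41l4aos), and as microRNA hosts (Dnm3os and Mir17hg). They were chosen by name, and each name matched a single Ensembl gene ID, so the group holds 9 of the 53801 genes counted. RNA sequencing was performed on the pre-osteoblast line MC3T3-E1, derived from mouse calvaria, in 3 libraries of cells carrying a scrambled non-silencing RNA (scramble) and 3 of cells carrying an shRNA against Hdac4 (knockdown). Both RNAs were delivered by lentivirus with a ZsGreen1 and puromycin resistance cassette, and infected cells were selected, so each group is a selected population of the same line. The comparison asks which transcripts differ when Hdac4, a class IIa histone deacetylase, is reduced. All 9 genes were tested, and 8 were higher and 1 was lower in the knockdown libraries (edgeR quasi-likelihood test, Benjamini-Hochberg adjusted p under 0.05 and an absolute log2 fold change over 0.05). These thresholds called 75.1% of the 14531 genes tested, 38.0% higher and 37.1% lower. Among tested genes of long noncoding biotypes, 56.8% were called higher and 10.9% lower. In all 9 genes the CPM of the groups did not overlap, which held for 76.8% of genes tested.

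Long noncoding RNAs are transcripts with little or no coding capacity. Malat1 is retained in nuclear speckles, where splicing factors gather, and the long form of Neat1 is the scaffold of paraspeckles, nuclear bodies built with the proteins Nono, Sfpq and Pspc1. The snoRNA hosts carry snoRNAs in their introns. The introns release snoRNAs, which guide modification of ribosomal RNA, while the spliced exons of several hosts are exported and degraded by nonsense-mediated decay during translation. Mir17hg is the precursor of the miR-17-92 cluster, a growth-promoting set of microRNAs. Dnm3os is transcribed antisense to an intron of Dnm3 and gives rise to miR-199a and miR-214, which are known from developing skeleton and mesenchyme.

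The mature microRNAs cut from the microRNA hosts are shown because they are the products through which these transcripts are known to act. They were taken from RefSeq (GRCm38.p6), 5′ to 3′, with the seed, bases 2 to 8, in capitals. Inside Mir17hg, on the plus strand of chromosome 14, RefSeq places 11 mature microRNAs with 9 different seeds. The first pair below shares a seed, the second pair shares another, and the last entries have seeds of their own.
miR-17-5p: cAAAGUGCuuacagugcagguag
miR-20a-5p: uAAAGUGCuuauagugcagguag
miR-19a-3p: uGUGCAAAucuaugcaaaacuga
miR-19b-3p: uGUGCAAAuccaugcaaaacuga
miR-18a-5p: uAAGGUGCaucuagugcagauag
miR-92a-3p: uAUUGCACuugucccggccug
The 4 mature microRNAs inside Dnm3os, on the plus strand of chromosome 1, have 4 different seeds, of which 3 are printed.
miR-199a-5p: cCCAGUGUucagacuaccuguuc
miR-199a-3p: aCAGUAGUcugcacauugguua
miR-214-3p: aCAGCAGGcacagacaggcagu
Libraries were made from poly-A RNA, and the microRNAs themselves were not measured. All 8 microRNA genes inside these hosts lie wholly inside host exons, so reads on them match both genes and were set aside. Their 0 counts in all 6 libraries were fixed by the counting and do not bear on the microRNAs. The values that follow are therefore those of the host transcripts.

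**Figure D1:**
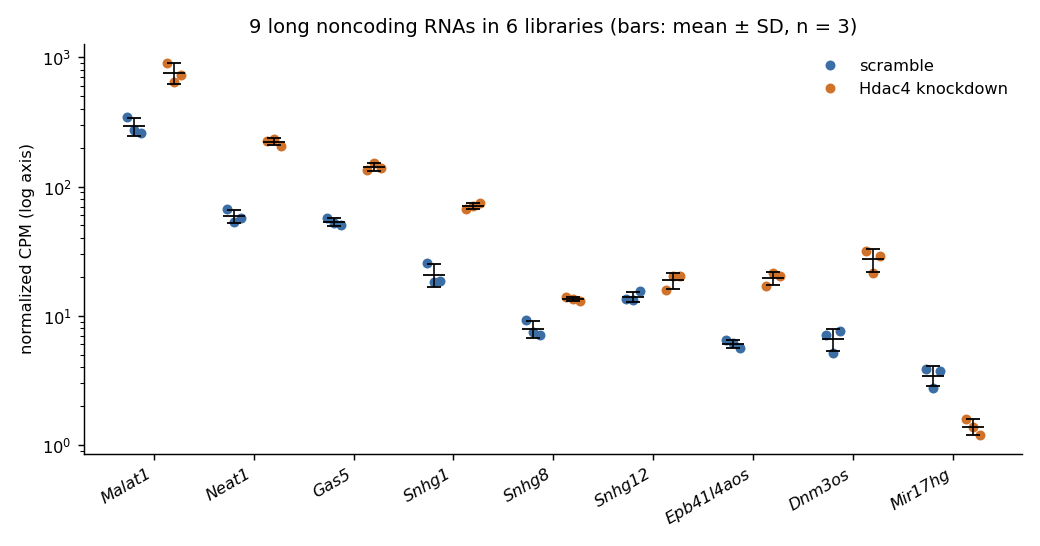
Each point is the normalized CPM of a gene in a library (log axis), blue for scramble and orange for Hdac4 knockdown, and the bars give the mean ± SD of 3 libraries. For 8 genes every knockdown point lies above every scramble point, most narrowly for Snhg12, and for Mir17hg every knockdown point lies below.

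Values below are CPM, each gene's count divided by the library's effective size and given per 1000000 counts, after TMM normalization, so each is a level relative to the library, and log2 fold changes are knockdown minus scramble with their SE. The libraries held 29096544 to 31651826 gene counts each.

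Malat1 (ENSMUSG00000092341, chr19:5795690-5802672, minus strand, mm10) was measured at 347, 273 and 259 CPM in scramble replicates 1 to 3 and at 912, 644 and 737 CPM in knockdown replicates 1 to 3. The groups did not overlap, and replicate 1 was the highest library of each group. The mean rose from 293 ± 47.3 to 764 ± 136 CPM (SD, n = 3), which is 1.38 on the log2 scale (SE 0.0993, adjusted p = 1.61e-10). Malat1 varied more between replicates than other genes of its level. Its coefficient of variation was 16.1% in scramble and 17.8% in knockdown, against medians of 2.44% and 3.37% for the genes within 2-fold of its level, of which 99.7% and 99.4% varied less.

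Neat1 (ENSMUSG00000092274, chr19:5824708-5845478, minus strand) was at 66.5, 52.7 and 57.4 CPM in scramble and at 226, 235 and 207 CPM in knockdown. It rose 3.79-fold on the CPM means (log2 fold change 1.92, SE 0.0664, adjusted p = 1.29e-15), with the lowest knockdown library 3.12-fold above the highest scramble library. Within each library, the ratio of Neat1 to Malat1 counts was 0.191, 0.193 and 0.221 in scramble and 0.248, 0.365 and 0.281 in knockdown. The ratio did not overlap between groups, and its log2 difference was 0.55, but the exact two-sided permutation test gave p = 0.1, the smallest value that 3 against 3 libraries allow. The ratio in knockdown replicate 2 combined the highest Neat1 with the lowest Malat1 of its group.

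Poly-A selection bears on how these transcripts were captured, so the end of each is shown, 5′ to 3′, from the GENCODE M21 transcripts. The long Malat1 and Neat1 transcripts are processed at a tRNA-like structure and end in an A-rich tract that is encoded in the genome rather than added. The tract is in capitals, and it was found as a run of A followed by GCAAAA. The Malat1 stretch is chr19:5795957-5796041 and the Neat1 stretch is chr19:5824708-5824767.
Malat1-201: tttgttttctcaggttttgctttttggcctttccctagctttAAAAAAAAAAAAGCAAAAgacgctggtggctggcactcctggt
Neat1-201: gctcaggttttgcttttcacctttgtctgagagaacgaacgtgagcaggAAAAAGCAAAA
In Malat1-201, of 6983 bases, the tract of 18 bases ended 292 bases before the annotated end, and in Neat1-201, of 20771 bases, the tract of 11 bases was the end itself. The longest run of A was 12 bases in Malat1, 7 in Neat1, 12 in Dnm3os and Snhg12, and 4 or 5 in the other genes. The counts do not tell the short from the long Neat1 transcript, since both fall in the same gene.

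Gas5 (ENSMUSG00000053332, chr1:161034422-161038539, plus strand), which hosts 10 annotated snoRNA genes, was at 57.1, 52.0 and 50.3 CPM in scramble and at 133, 153 and 140 CPM in knockdown. It rose 2.68-fold (log2 fold change 1.42, SE 0.0571, adjusted p = 1.46e-14). Snhg1 (ENSMUSG00000108414, chr19:8723475-8726443, plus strand), with 8 snoRNA genes, was at 25.6, 18.3 and 18.6 CPM in scramble and at 67.1, 70.7 and 74.1 CPM in knockdown. It rose 3.39-fold (log2 fold change 1.76, SE 0.0898, adjusted p = 6.82e-13), the most of the snoRNA hosts among the 9 genes, with scramble replicate 1 above the others of its group. Epb41l4aos (ENSMUSG00000087590, chr18:33794892-33795986, plus strand), transcribed toward Epb41l4a, was at 6.48, 6.11 and 5.61 CPM in scramble and at 17.1, 21.3 and 20.4 CPM in knockdown. It rose 3.23-fold (log2 fold change 1.69, SE 0.103, adjusted p = 1.22e-11).

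Snhg8 and Snhg12 differed less between the groups. Snhg8 (ENSMUSG00000104960, chr3:123507552-123508404, minus strand, 1 snoRNA gene) was at 9.33, 7.48 and 7.05 CPM in scramble and at 13.9, 13.4 and 12.9 CPM in knockdown, or 0.75 higher on the log2 scale (SE 0.105, adjusted p = 2.67e-06). Snhg12 (ENSMUSG00000086290, chr4:132308623-132311024, plus strand, 5 snoRNA genes) was at 13.4, 13.1 and 15.4 CPM in scramble and at 15.7, 20.2 and 20.4 CPM in knockdown. Its log2 fold change was 0.43 (SE 0.0993, adjusted p = 0.000712), the smallest of the 9, and the lowest knockdown library stood only 1.02-fold above the highest scramble library. The differences among the log2 fold changes of the hosts were not tested.

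Reads that fall where a snoRNA gene lies inside a host exon match both genes and were set aside by the counting, and such shared bases made up 17.8% of the exon bases of Gas5, 21.0% of Snhg1, 15.2% of Snhg8, 19.6% of Snhg12 and 0 of Epb41l4aos. Part of the annotated exon sequence of the hosts is retained intron that holds the snoRNA. Of the 25 snoRNA genes inside the 5 hosts, 24 were at 0 in all 6 libraries, and the exception, Gm23639 in Epb41l4aos, reached at most 4 counts. Those 24 lie wholly inside annotated host exons, so any read on them was set aside, and their 0 was fixed by the counting. Gm23639 touches no exon of its host. The counts therefore do not measure the snoRNAs themselves.

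Many transcripts of the translation machinery begin with a C followed by a run of C and T, the 5′ terminal oligopyrimidine (TOP) start, and several snoRNA hosts are known for the same start. The 41 bases around the RefSeq start sites of 4 hosts (GRCm38.p6) are shown for this reason, with the start site as the middle base and the longest run of C or T that opens with C, within 10 bases of the start site, in capitals. The windows are chr1:161035146-161035186 on the plus strand for Gas5, chr19:8723467-8723507 on the plus strand for Snhg1, chr3:123508316-123508356 on the minus strand for Snhg8 and chr4:132308658-132308698 on the plus strand for Snhg12. Gas5 has 2 RefSeq start sites, and the downstream site is shown.
Gas5: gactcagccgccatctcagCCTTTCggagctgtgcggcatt
Snhg1: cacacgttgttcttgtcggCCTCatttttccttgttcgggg
Snhg8: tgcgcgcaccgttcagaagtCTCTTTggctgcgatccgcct
Snhg12: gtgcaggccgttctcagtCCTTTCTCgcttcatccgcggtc
The run was 6 bases in Gas5, 4 in Snhg1, 6 in Snhg8 and 8 in Snhg12. Of 32851 mouse promoters searched in the same way on the gene's own strand, 43.8% held a run of at least 4 bases, 15.8% of at least 6 and 5.96% of at least 8. The run at the other Gas5 start site had 3 letters. A run is a description of letters only.

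Protein-coding genes with TOP starts went the other way. Of 17 listed TOP translation genes tested, 15 were lower, 1 was higher and 1 was not called, with a median log2 fold change of -0.37, beside 0.01 over all genes tested. Eef1a1, the elongation factor that brings tRNA to the ribosome, fell by 0.54 on the log2 scale (adjusted p = 1.18e-11), and Npm1, a nucleolar chaperone, fell by 0.73 (adjusted p = 6.98e-13). Eef1g, a subunit of the elongation factor complex, was the only member of the list called higher, at a log2 fold change of 1.18 (adjusted p = 1.46e-16). It lies on chromosome 19 close to Snhg1, in the stretch described below. Of 78 ribosomal protein genes, 56 were lower, 13 higher and 9 not called, with a median of -0.24. The summed counts of Gas5, Snhg1, Snhg8, Snhg12 and Epb41l4aos were 0.223%, 0.196% and 0.203% of the ribosomal protein gene counts in scramble and 0.584%, 0.599% and 0.598% in knockdown. The groups did not overlap and differed by 1.52 on the log2 scale (exact two-sided permutation p = 0.1, the smallest possible).

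**Figure D2:**
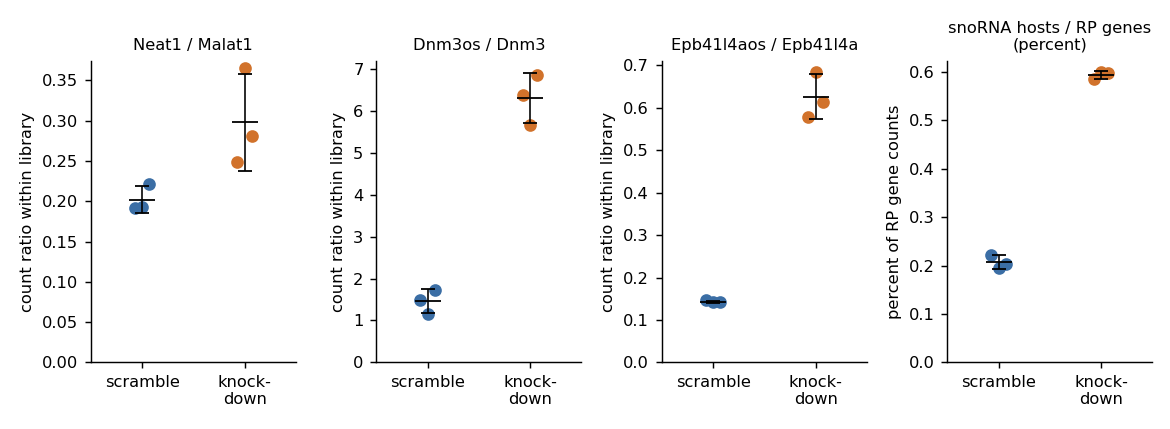
Each panel gives a ratio of counts formed within a library, blue for the 3 scramble and orange for the 3 knockdown libraries, with the mean ± SD as bars; the y axes start at 0. In every panel the knockdown libraries lie above the scramble libraries, with the smallest gap for Neat1 to Malat1.

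Dnm3os (ENSMUSG00000078190, chr1:162217623-162225550, plus strand) had the largest log2 fold change of the 9 genes. It was at 7.13, 5.11 and 7.54 CPM in scramble and at 31.96, 21.3 and 28.7 CPM in knockdown, and the mean rose 4.14-fold (log2 fold change 2.05, SE 0.139, adjusted p = 6.38e-11). Its counts were 218, 153 and 215 in scramble and 989, 686 and 865 in knockdown, with replicate 2 the lowest in each group. Its spread was wide for its level in knockdown, with a coefficient of variation of 20.04% against a median of 5.24% for genes within 2-fold of it.

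Dnm3, the dynamin gene that holds Dnm3os on the opposite strand, did not pass the test (4.52 to 4.32 CPM, log2 fold change -0.07, SE 0.145, adjusted p = 0.676). The ratio of Dnm3os to Dnm3 counts was 1.48, 1.16 and 1.73 in scramble and 6.38, 5.67 and 6.87 in knockdown, a log2 difference of 2.13 with no overlap (exact two-sided permutation p = 0.1). The 2.78% of Dnm3os exon bases shared with other annotated genes lie in Mir214 and Mir199a-2, on the same strand. The library kit does not mark strand, so reads from unspliced Dnm3 that cross Dnm3os cannot be told from Dnm3os.

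The transcription factor Twist1 is known to drive Dnm3os through an E-box, and it was among the listed partners. Twist1 was at 52, 64 and 64 counts in scramble and at 1052, 1269 and 1072 counts in knockdown, a rise from 2.03 to 36.3 CPM (log2 fold change 4.16, SE 0.107, adjusted p = 1.15e-17). Twist2 fell by 0.83 (adjusted p = 0.00415), and Prrx1, a homeobox factor of limb and skull mesenchyme, rose by 0.94 (adjusted p = 4.39e-12). Ezh2, the histone methyltransferase of the Polycomb complex and a known target of miR-214, fell by 0.74 (adjusted p = 2.28e-10). Of the 7 listed regulators and partners of Dnm3os, 3 were higher, 3 lower and 1 not called.

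The promoter of Dnm3os is shown because of this factor, from RefSeq (GRCm38.p6, chr1:162217373-162217672, plus strand), 250 bases before the start site to 50 bases from it onward, with the letters CANNTG, which are the E-box and read alike on both strands, in capitals.
Dnm3os promoter: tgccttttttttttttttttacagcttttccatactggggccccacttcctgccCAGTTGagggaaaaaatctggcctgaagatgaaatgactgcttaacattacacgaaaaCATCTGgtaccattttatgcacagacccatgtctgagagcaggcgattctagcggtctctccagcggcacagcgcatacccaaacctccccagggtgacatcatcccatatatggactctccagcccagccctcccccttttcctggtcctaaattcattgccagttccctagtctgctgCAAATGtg
The window held 3 matches, with first letters at -196, -138 and 42 from the start site. At least 1 match was present in 72.3% of the 32851 promoters and at least 3 in 17.6%, so such matches are common, and binding was not measured.

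Mir17hg (ENSMUSG00000089726, chr14:115042879-115046727, plus strand) was the only gene of the 9 that was lower. It was at 3.86, 2.74 and 3.72 CPM in scramble and at 1.58, 1.37 and 1.20 CPM in knockdown, or 118, 82 and 106 counts against 49, 44 and 36. The knockdown mean was 40.2% of the scramble mean (log2 fold change -1.31, SE 0.207, adjusted p = 1.16e-05), and every knockdown library lay below every scramble library. As the least abundant of the 9 by CPM, it had the largest SE. MicroRNA genes share 15.2% of the exon bases of Mir17hg, and reads there were set aside by the counting.

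Among 12 tested regulators and known targets of the miR-17-92 cluster, 5 were higher, 4 lower and 3 not called, with a median log2 fold change of 0.04. Of the factors known to activate the host gene, E2f2 fell by 1.22 (28.7 to 12.3 CPM, adjusted p = 1.31e-11) and E2f1 fell by 0.40 (adjusted p = 2.48e-05). E2f3, another E2F factor of the list, did not pass the test (0.06, adjusted p = 0.334). Myc was higher by a log2 fold change of 0.14 (adjusted p = 0.00754), a call that was lost without scramble replicate 2 (0.12, adjusted p = 0.0512). Of the known targets, Cdkn1a, an inhibitor of cyclin-dependent kinases, rose 1.09 on the log2 scale (adjusted p = 3.31e-15). The targets did not share a direction: Thbs1, a secreted matrix protein, fell by 0.58 (adjusted p = 5.58e-11) and Rb1 fell by 0.50 (adjusted p = 4.66e-06).

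**Figure D3:**
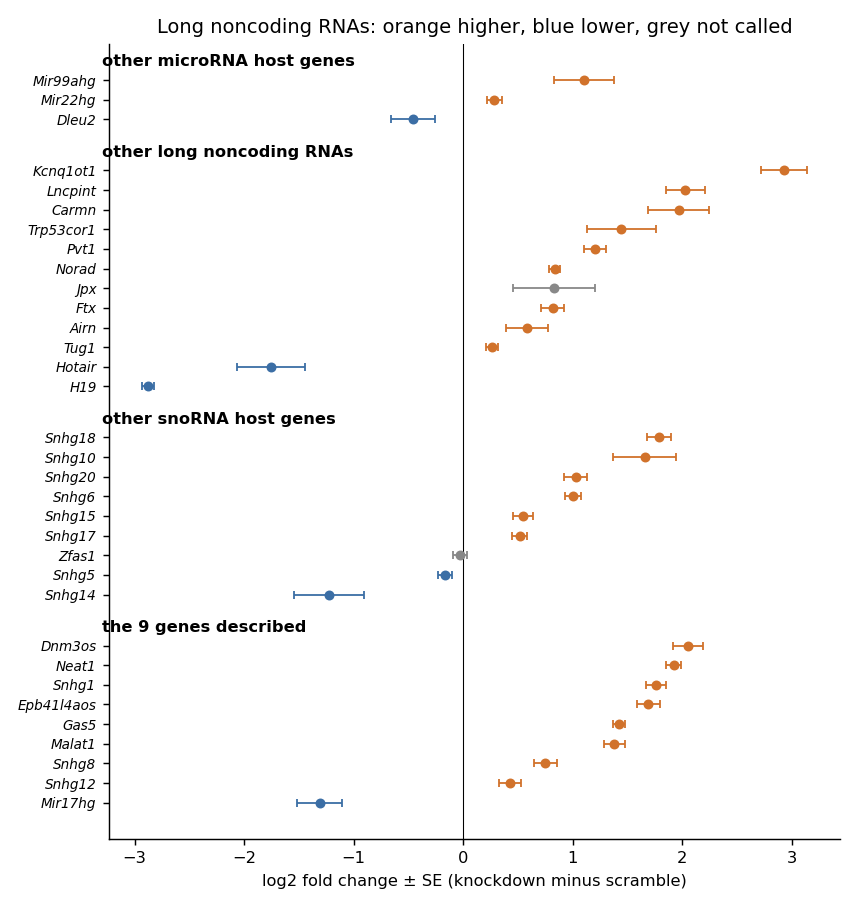
Log2 fold change ± SE (knockdown minus scramble) of the 9 genes and of the tested genes of 3 further lists of long noncoding RNAs, with orange for called higher, blue for called lower and grey for not called. Of the 9 genes only Mir17hg lies left of 0, and the other lists hold genes on both sides, from H19 at -2.88 to Kcnq1ot1 at 2.93.

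Other long noncoding RNAs were examined in the same fit. Of 9 further snoRNA hosts tested, 6 were higher, 2 lower and 1 not called, with a median log2 fold change of 0.55. Snhg18 rose the most, from 3.99 to 13.8 CPM (log2 fold change 1.79, adjusted p = 1.38e-11), and Snhg6 rose from 22.6 to 45.2 CPM (1.00, adjusted p = 4.51e-10). Snhg14, the host of the imprinted Prader-Willi region snoRNAs, fell by 1.23 (adjusted p = 0.00181), and Snhg5 fell by 0.17 (adjusted p = 0.0261), a call that was lost under 6 of 14 alternative settings, among them when library size alone was used (-0.11, adjusted p = 0.133) or scramble replicate 1 was left out (-0.12, adjusted p = 0.152). Zfas1, another abundant host, did not pass the test (-0.03 on the log2 scale, SE 0.0645, adjusted p = 0.66), although its level in scramble, 45.5 CPM, was near the 53.1 CPM of Gas5.

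Of 12 other well-known long noncoding RNAs tested, 9 were higher, 2 lower and 1 not called, with a median of 0.83. Kcnq1ot1, a very long nuclear RNA that silences an imprinted domain, rose from 1.29 to 9.88 CPM (log2 fold change 2.93, adjusted p = 1.60e-10). Norad, a cytoplasmic RNA that binds Pumilio proteins, rose by 0.84 (adjusted p = 4.21e-12) and Tug1 by 0.26 (adjusted p = 0.000223). H19, an imprinted RNA of embryonic and muscle tissue, fell from 157 to 21.3 CPM (log2 fold change -2.88, adjusted p = 3.66e-20), and Hotair, transcribed from the HOXC cluster, fell by 1.76 (adjusted p = 4.25e-05). Of 3 further microRNA hosts tested, Mir99ahg (1.10, adjusted p = 0.00126) and Mir22hg (0.28, adjusted p = 0.000843) were higher and Dleu2 was lower (-0.46, adjusted p = 0.0452). The call of Dleu2 was lost under 8 of 14 alternative settings, the DESeq2 test among them (-0.46, adjusted p = 0.0806), and without knockdown replicate 2 its value was -0.31 (adjusted p = 0.188).

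Over the 976 tested genes of long noncoding biotypes the median log2 fold change was 0.86, and over the 148 of them with a mean of at least 100 counts it was 0.53, with 91 (61.5%) higher and 23 (15.5%) lower. The 10498 protein-coding genes at that depth had a median of -0.05. The share of 8 of 9 stands against a background of long noncoding genes that was itself shifted upward. The share of reads that fell outside annotated exons was also higher in knockdown, at 4.64% to 5.07% against 3.17% to 3.41% in scramble. It was highest in knockdown replicate 1. Among the knockdown libraries, that replicate was highest for Malat1, Snhg8, Dnm3os and Mir17hg. It was lowest for Gas5, Snhg1, Snhg12 and Epb41l4aos, and between the others for Neat1. The part of this share in the results was not tested.

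Summed over the 9 genes, counts were 0.0416% to 0.0528% of all gene counts in scramble and 0.1201% to 0.145% in knockdown, and Malat1 made up 54.6% to 64.7% of the sum in every library. Levels per kilobase used the exon bases of all annotated transcripts of a gene together, retained introns included. That length is 3760 bases for Gas5, whose transcript Gas5-201 has 530, and 20771 for Neat1, whose Neat1-202 has 3004. The order among genes therefore depends on the length used. Per kilobase of exon in this sense, Malat1 was the most abundant in both groups, at 42.0 ± 6.78 CPM per kb in scramble and 109 ± 19.5 in knockdown. In scramble it was followed by Gas5 (14.1) and Epb41l4aos (14.1), which did not differ beyond their spread, by Snhg8 (9.32), Snhg1 (7.01) and Snhg12 (5.81), each overlapping the next in range, by Neat1 (2.83), and by Mir17hg (0.973) and Dnm3os (0.832), which overlapped. In knockdown the order was Malat1, Epb41l4aos (45.6) and Gas5 (37.8), which overlapped, then Snhg1 (23.8), Snhg8 (15.7), Neat1 (10.7), Snhg12 (7.81), Dnm3os (3.45) and Mir17hg (0.391), with no further overlap between neighbours. Neat1 thus stood below Snhg12 per kb in scramble and above it in knockdown, and Dnm3os and Mir17hg, which overlapped in scramble, were apart in knockdown.

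**Figure D4:**
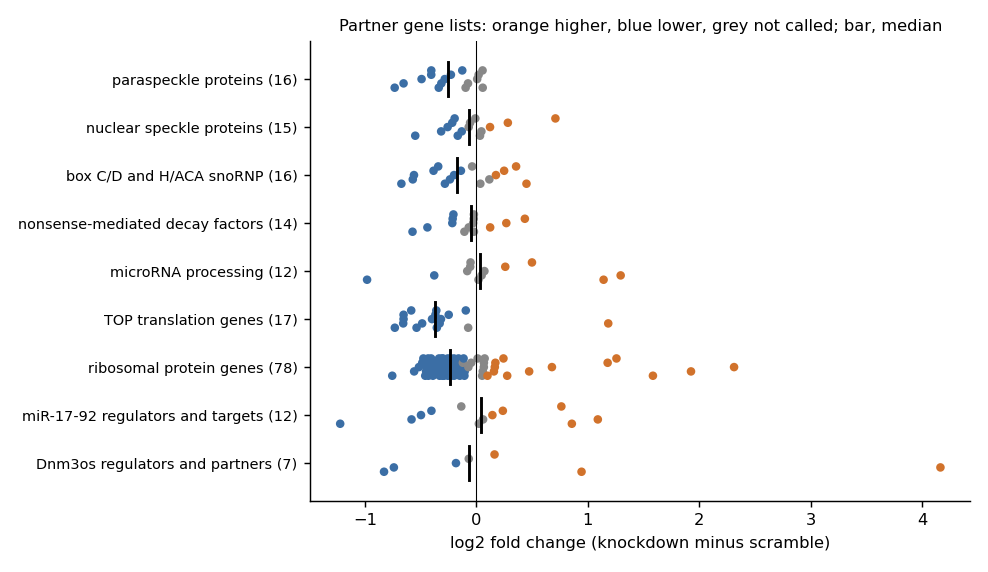
Each point is the log2 fold change (knockdown minus scramble) in mRNA of a tested gene, in lists of proteins that bind, process or relate to the 9 RNAs. Orange is called higher, blue called lower and grey not called, and the black bar is the median of the list. No paraspeckle protein is called higher, most TOP translation genes lie left of 0, and Twist1 stands apart at 4.16.

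The mRNAs of the proteins that work with these RNAs did not share the rise, and protein levels were not measured. Of 16 paraspeckle proteins, none was called higher, 10 were lower and 6 were not called, and their median was -0.26 (log2). The core proteins that bind Neat1 were among those lower: Pspc1 fell by 0.73 (39.3 to 23.6 CPM, adjusted p = 3.02e-09), Nono by 0.49 (adjusted p = 2.16e-10) and Sfpq by 0.29 (adjusted p = 1.94e-06). Of 15 nuclear speckle proteins, 3 were higher, 7 lower and 5 not called, with a median of -0.07, from Srsf3, a splicing factor, at -0.55 (adjusted p = 5.30e-10) to Rnps1, a component deposited on spliced RNA, at 0.71 (adjusted p = 2.38e-11).

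The mRNAs of the proteins that assemble with snoRNAs were mixed, with 4 of 16 higher, 9 lower and 3 not called and a median of -0.17. The mRNAs of the core proteins of box C/D particles were lower: the methyltransferase Fbl fell by 0.34 (adjusted p = 2.52e-06), Nop56 by 0.24 (adjusted p = 1.59e-05), Nop58 by 0.20 (adjusted p = 0.000292) and Snu13 by 0.57 (adjusted p = 5.61e-10). Of the box H/ACA proteins, Nhp2 fell by 0.67 (adjusted p = 9.18e-11) and Nop10 rose by 0.45 (adjusted p = 2.97e-06). Of 14 factors of nonsense-mediated decay, which degrades the spliced exons of several hosts, 3 were higher, 5 lower and 6 not called (median -0.05): the helicase Upf1 rose by 0.43 (adjusted p = 7.32e-08) and Upf3b fell by 0.57 (adjusted p = 9.25e-06). Of 12 genes of microRNA processing, 4 were higher, 2 lower and 6 not called (median 0.03), from Tarbp2, a Dicer partner, at -0.98 (adjusted p = 1.89e-12) to the Argonaute Ago4 at 1.29 (adjusted p = 1.22e-06).

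**Figure D5:**
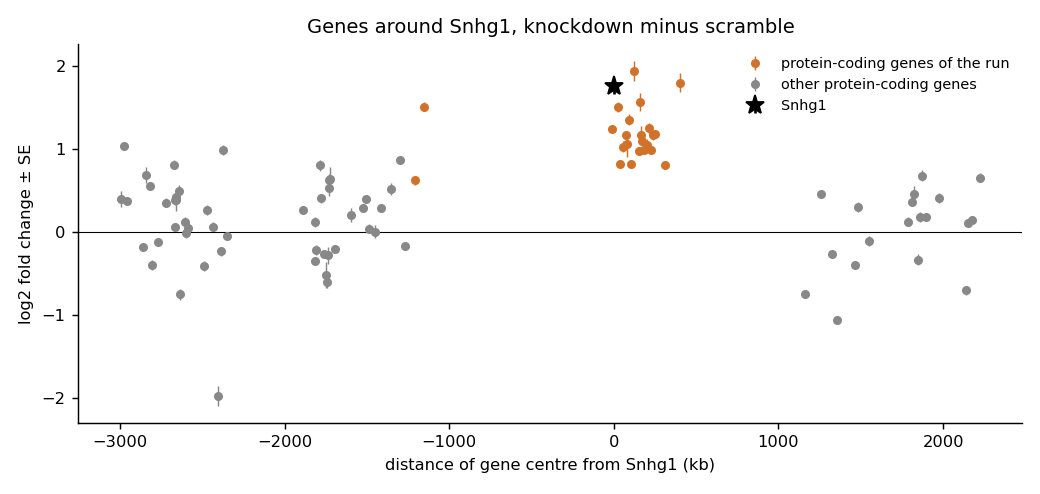
Log2 fold change ± SE (knockdown minus scramble) of tested protein-coding genes against the distance of their centres from Snhg1 in kb, with the genes of the run in orange, others in grey and Snhg1 as a star. The run genes near Snhg1 form a cluster between about 0.8 and 2, while genes farther away scatter on both sides of 0.

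The genes beside the 9 loci were compared with them. The nearest tested protein-coding genes on each side that do not overlap the RNA gene were 16 distinct genes, of which 8 were higher, 3 lower and 5 not called. Slc3a2, an amino acid transporter subunit 105 bases from Snhg1 and transcribed away from it, rose from 152 ± 4.52 to 360 ± 13.9 CPM (log2 fold change 1.25, adjusted p = 1.03e-15), and Stx5a on the other side rose by 1.51 (adjusted p = 9.68e-15). Epb41l4a, whose end lies 340 bases from the end of Epb41l4aos and which is transcribed toward it, fell by 0.44 (42.4 to 31.3 CPM, adjusted p = 3.99e-06). The ratio of Epb41l4aos to Epb41l4a counts was 0.146, 0.141 and 0.142 in scramble and 0.580, 0.684 and 0.615 in knockdown, a log2 difference of 2.12 (exact two-sided permutation p = 0.1). Taf12 and Trnau1ap beside Snhg12 did not pass the test (log2 fold changes -0.12 and -0.03, adjusted p = 0.0823 and 0.699), although Taf12 passed without knockdown replicate 3 (-0.17, adjusted p = 0.0240). Malat1 and Neat1, which are adjacent, share a neighbour, Frmd8 (-0.18, adjusted p = 0.00242), which was not called after upper quartile normalization (-0.09, adjusted p = 0.103).

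Of the 40 nearest protein-coding genes with a mean of at least 100 counts, 31 were higher and 6 lower around Snhg1, and the median was 0.85 on the log2 scale. Around Epb41l4aos, which rose itself, 4 were higher and 29 lower, with a median of -0.61. The other 7 loci had between 8 and 24 of 40 higher and medians between -0.30 and 0.28. Snhg1 lies in a run of 23 consecutive tested protein-coding genes that were all called higher, from Atl3 to Asrgl1 (chr19:7494040-9135636), with log2 fold changes from 0.62 to 1.94 and a median of 1.17. All 27 tested genes of any biotype in this stretch were higher. The run was sought after the values were seen. It was the longest run of called-higher genes on any chromosome, and the next had 21 genes. The cause of the run was not tested.

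Some genes followed the pattern of a member most closely. By Pearson's r of log2 CPM over the 6 libraries, among 10816 genes with a mean of at least 100 counts, the genes most like each were Dnajb14 and Cpsf7 for Malat1, Enox1 and Etv5 for Neat1, Mettl24 and Ncstn for Gas5, Dglucy and Aga for Snhg1, Gm26792 for Snhg8, Myc and Naa80 for Snhg12, Eif2d and Npepl1 for Epb41l4aos, Cnst and Ghr for Dnm3os, and Faap24 and Cep89 for Mir17hg. The r values ran from 0.984 for Naa80 to 0.9996 for Eif2d. The 6 libraries form 2 groups, so any gene that differs between them scores high, and the values are a description only.

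The libraries differed in much more than these genes. Hdac4 had 1243, 1204 and 1136 counts in scramble and 950, 927 and 887 in knockdown, and fell by 0.44 on the log2 scale (adjusted p = 8.98e-07). Of the markers that define osteoblasts, Alpl was at 3 counts or fewer in every library and Bglap and Ibsp at 3 or fewer in every scramble library, while the summed CPM of the 12 osteoblast markers was 4798 to 4811 in scramble and 21503 to 22333 in knockdown. Most of the rise in the sum came from Col1a1 (means of 338 and 11015 CPM) and Col1a2 (1213 and 8572 CPM), whereas Spp1 fell by 0.62 on the log2 scale (adjusted p = 1.82e-12) and Phex did not pass the test (-0.09, adjusted p = 0.428). All 7 skeletal muscle markers, Myod1 and Des among them, were lower, with a sum of 914 to 951 CPM in scramble and 130 to 150 in knockdown. The 7 neural markers summed to 616 to 637 and 84.6 to 92.3 CPM, with Rbfox3 and Snap25 at 3 counts or fewer in every library, and the 5 adipocyte markers to 105 to 116 and 23.9 to 29.1 CPM, with Adipoq and Plin1 at 3 or fewer. Leukocyte, endothelial and epithelial marker sums stayed below 10 CPM in every library, but the endothelial sum was 0.360 to 0.668 CPM in scramble and 5.61 to 6.42 in knockdown, and Pecam1 (3.45 on the log2 scale, adjusted p = 4.46e-09) and Vwf (means of 0.192 and 3.11 CPM, adjusted p = 1.50e-09) rose. H19 is also expressed in muscle precursors. The part of these differences in the values of the 9 genes was not tested, and in bulk RNA a change in the share of cells of a type and a change in RNA per cell cannot be told apart.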

How the data were processed

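Poly-A RNA of 6 samples was sequenced with an unstranded kit, and the authors deposited whole-number counts per Ensembl gene for each library, made per the labels with STAR 2.7.3a and HTSeq 0.12.4 on mm10. Libraries held 29096544 to 31651826 gene counts. Reads shared between genes, 5.84% to 6.51% of a library, and reads outside exons or aligned to several places were left out of totals and tests, which lowers the counts of genes that overlap snoRNA genes. Of 53801 gene IDs, 53706 matched GENCODE M21, the source of symbols and positions. From the deposited counts, edgeR 4.0.16 (R 4.3.3; filterByExpr, TMM, glmQLFit and glmQLFTest) was fitted across 14531 genes, all 6 libraries, group as the only term, with Benjamini-Hochberg adjustment and calls at an adjusted p under 0.05 and an absolute log2 fold change over 0.05, the study's limits. Ratios of counts were compared with an exact two-sided permutation test. DESeq2 1.42.0, limma 3.58.1 (voom), 3 other normalizations, 2 other filters, a replicate block and leaving out each library were alternatives. On simulated data of 14531 genes for this comparison, 89 of 100 planted genes at a log2 change of 1 and 95 of 100 at 2 were recovered, and 0.0628% of unchanged genes were called. Only the planted genes were changed in the simulation, whereas 75.1% of genes were called in the data. The adjustment depends on that share, so these rates do not carry over to the real comparison.

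The labels call the 3 samples of a group independent RNA samples and the study calls them biological replicates, and p-values measure the spread between them. Replicates differed beyond sampling noise (chi-square per degree of freedom 3.23 to 8.36). RefSeq tables gave 8 promoter entries for 7 of the 9 genes. The 9 genes and the lists of other genes were chosen with earlier results of these data known. Named were the 9 genes, Dnm3, Epb41l4a, the nearest genes on each side, the called extremes of each list, genes given a role in the text and the 2 genes most like each of the 9. Some genes that this rule names are not reported here.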

Additional observations from a re-analysis of the deposited data

How the results depend on the processing

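All 9 genes kept their direction and call in 126 of 126 alternative values, with 8 higher and 1 lower in every fit. Beyond a log2 fold change of 0.5, 7 were higher, and beyond 1, 6 were, with Mir17hg lower at each limit. The log2 fold changes across settings ran from 1.24 to 1.51 for Malat1, 1.84 to 2.01 for Neat1, 1.37 to 1.51 for Gas5, 1.66 to 1.93 for Snhg1, 0.66 to 0.87 for Snhg8, 0.37 to 0.55 for Snhg12, 1.62 to 1.79 for Epb41l4aos, 1.89 to 2.21 for Dnm3os and -1.46 to -1.22 for Mir17hg. Over all genes, 3579 were higher and 2879 lower beyond 0.5, and 2397 and 1543 beyond 1. Over the 11 lists, 24 were higher and 20 lower beyond 0.5, and 15 and 4 beyond 1.

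With library size alone, list medians became -0.20 for paraspeckle proteins, -0.013 for speckle proteins, 0.0071 for decay factors, 0.089 for microRNA processing, -0.31 for TOP genes and 0.097 for miR-17-92 genes. With upper quartile normalization they became -0.17, 0.019, 0.039, 0.12, -0.28 and 0.13 in that order, -0.081 for snoRNP, 0.020 for Dnm3os partners and -0.15 for ribosomal protein genes; these settings shifted the median of all genes by 0.06 and 0.09. The paraspeckle median was -0.29 with at least 1 count in any library and -0.22 with at least 10 in every library, where decay factors had -0.012 and TOP genes -0.33. The Dnm3os partner median ranged from -0.15 to 0.025 without single libraries. Uncalled values changed sign for Trnau1ap (0.030 with library size alone, 0.062 with upper quartile, 0.011 with at least 10 counts), Zfas1 (0.024, 0.057 and 0.0053 in the same order) and Dnm3 (0.020 with upper quartile). Without single libraries the values ranged from -0.081 to 0.035 for Zfas1, -0.18 to 0.025 for Dnm3, -0.049 to 0.17 for Rc3h1 and -0.049 to 0.091 for Tpm3-rs7, where Rc3h1 was called without knockdown replicate 2.

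Same-numbered libraries did not deviate together (r of -0.01, 0.10 and 0.02), and only the number is shared. With the replicate block, 5523 genes were higher and 5441 lower, the 9 genes kept their calls, and Taf12 passed (-0.12, adjusted p = 0.0481). Ratios without single libraries ranged from 0.39 to 0.67 (Neat1 to Malat1), 1.97 to 2.26 (Dnm3os to Dnm3), 2.06 to 2.18 (Epb41l4aos to Epb41l4a) and 1.48 to 1.57 (snoRNA hosts to ribosomal protein genes), on the log2 scale. Low counts limit Mir17hg most. The causes of these shifts were not tested.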

Other observations

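Some long noncoding RNAs were close to 0 in every library and were not tested. Meg3, Rian and Mirg, neighbours in the imprinted Dlk1-Dio3 region, were at 0 counts in all 3 scramble libraries and reached at most 4, 10 and 4 counts in the knockdown libraries. Dancr had at most 5 counts and Miat at most 3 in any library. Terc, Rmrp and Rpph1, whose transcripts have no poly-A tail, had at most 1 count.

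Among the ribosomal protein genes, of which most were lower, Rpl26, Rps2 and Rpl29 rose by 2.31, 1.93 and 1.58 on the log2 scale. Rps2 went from 16325, 16040 and 14479 counts to 59043, 66091 and 61239. They were singled out after their values were seen.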
